A study of Homo sapiens and Mus musculus with 22 samples.

Results

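Genes of MHC class I antigen presentation were followed in U2OS, a human osteosarcoma line, and in L929, a mouse fibroblast line. They were chosen by symbol, 7 per species: PSMB8, PSMB9, TAP1, TAP2 and B2M in both, HLA-B and HLA-C in the human tables, and H2-K1 and H2-D1 in the mouse table. All 7 were found in each table, out of 22681 (SETDB1), 21987 (ATG5) and 22735 (cGAS) genes kept. H2-D1 was listed only as a locus joined with H2-L, and its values are those of the joined locus. Each human member on chromosome 6 was listed 6 to 8 times, with 1 entry above 0, and that entry was used.

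Class I molecules carry short peptides from inside the cell to its surface, where CD8 T cells read them. The peptides are cut by the proteasome, in which PSMB8 and PSMB9, catalytic subunits induced by interferon, can replace their constitutive counterparts PSMB5 and PSMB6 to form the immunoproteasome. TAP1 and TAP2 form the transporter that moves the peptides into the endoplasmic reticulum. There they are loaded onto a heavy chain (such as HLA-B or HLA-C in human, H2-K, H2-D or H2-L in mouse) paired with the light chain B2M. Interferon-responsive factors such as IRF1, NF-kappaB subunits and the transactivator NLRC5 are known to raise transcription of these genes.

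RNA from poly(A)-selected libraries was measured in 14 samples of the series, in 3 tables. The SETDB1 table held mock-treated U2OS cells of SETDB1 knockout KO1, SETDB1 knockout KO2 and wild type (WT), with 2 libraries per group. SETDB1 is a histone H3K9 methyltransferase. The ATG5 table held U2OS cells labelled with ATG5 knockdown (KD) or carrying a vector, each treated with 10 µM BIX-01294 (BIX) for 12 h or mock-treated, with 1 value per group that, per the labels, stands for 2 replicates. ATG5 is needed for autophagosome formation, and BIX inhibits the H3K9 methyltransferases EHMT1 and EHMT2. The cGAS table held L929 cells that were cGAS KO or cGAS WT, with the same BIX or mock treatment and 1 library per group. cGAS senses DNA in the cytosol. A treatment note of the labels states BIX for every RNA sample, whereas names and characteristics state mock for part of them, and these were followed. The sources used here do not give whether a KO was 1 clone or whether libraries of a group came from separate cultures, so p-values measure only the spread between these libraries, which may be technical.

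The targeted genes were checked first. SETDB1 was at 5.90 and 7.03 FPKM in KO1, 6.89 and 7.35 FPKM in KO2, and 9.98 and 9.32 FPKM in WT. ATG5 was at 13.4 FPKM with BIX and 10.1 FPKM with mock in the cells labelled ATG5 KD, against 12.3 FPKM with BIX and 11.3 FPKM with mock in vector cells. The level was lower with mock but higher with BIX in the cells labelled ATG5 KD, so the ATG5 mRNA does not check the label, and these cells are called by their label below. Mb21d1, the gene of cGAS, was at 4.41 FPKM with BIX and 1.19 FPKM with mock in cGAS KO cells, against 3.47 FPKM with BIX and 2.82 FPKM with mock in cGAS WT cells, and a knockout can leave its mRNA in place. In every library 9 of 10 mesenchymal markers were at 1 FPKM or more. Of 12 haematopoietic markers, 0 reached 1 FPKM in U2OS libraries (summed level 0.828 to 2.87 FPKM), and 1 or 2 did in L929 libraries (Cd14 and Lyz2, summed level 2.08 to 6.31 FPKM). Read counts were not given. From the steps of low FPKM values, the L929 cGAS WT BIX library held 0.747 times the reads of the cGAS WT mock library, while the cGAS KO libraries held 1.012 times (BIX) and 1.009 times (mock) the reads of that mock library.

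Sequence upstream of the human start sites is shown first, because several members share short interferon-type and kappaB-type motifs there and genes of the factors that bind such motifs are among those measured below. RefSeq promoter windows of build GRCh38.p14 were matched for all 7 human members (9 windows, as TAP1 and PSMB8 have a further start). The build differs from the hg19 build named for the FPKM values, and no mouse promoters were used here. Motifs GAAANNGAAA (interferon-stimulated response element core), GAANNGAAA (a shorter form of it) and GGGANTNNCC (kappaB-type) were searched on both strands in the 250 bases before each start. Of 35116 windows of that length, 3.02% held GAAANNGAAA, 6.56% held GAANNGAAA and 4.46% held GGGANTNNCC. Matches are in capitals, written 5′ to 3′ on the strand of the gene, and overlapping matches run together.
B2M (chr15:44711365-44711409, plus strand): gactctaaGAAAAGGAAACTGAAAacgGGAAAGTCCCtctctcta
TAP1, interferon-type (chr6:32853815-32853846, minus strand): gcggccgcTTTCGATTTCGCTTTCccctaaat
TAP1, kappaB-type (chr6:32853759-32853784, minus strand): ctgttcctGGGACTTTCCgagagccc
TAP2 (chr6:32838780-32838810, minus strand): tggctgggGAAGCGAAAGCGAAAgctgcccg
HLA-B (chr6:31357318-31357364, minus strand): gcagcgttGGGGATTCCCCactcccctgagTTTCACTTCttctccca
HLA-C (chr6:31272227-31272272, minus strand): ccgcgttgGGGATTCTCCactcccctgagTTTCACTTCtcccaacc

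B2M, TAP1 and TAP2 held GAAANNGAAA, with 2, 2 and 1 matches, and B2M and TAP1 also held a kappaB-type match. HLA-B and HLA-C held only the shorter form, 1 match each. Beside it, HLA-B held 2 overlapping kappaB-type matches, 1 on each strand, and HLA-C held 1. PSMB8, PSMB9 and the further start of TAP1 held none of the 3 motifs in these windows, which says only that these letters are absent there. Among protein-coding genes of chromosome 6, TAP2, PSMB8, TAP1 and PSMB9 are consecutive in this order, and the starts of TAP1 and PSMB9, which lie on opposite strands, are 487 bases apart. These matches describe reference sequence and not the alleles of U2OS.

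In U2OS the light chain was by far the most abundant member, the heavy chains followed, and the transporter and immunoproteasome genes were low. In the 6 libraries of the SETDB1 table, B2M was at 767 to 1040 FPKM and ranked between 53 and 84 among all genes. HLA-B was at 44.1 to 56.3 FPKM and HLA-C at 39.7 to 54.7 FPKM, ranges that overlap, so their order is not fixed. PSMB8 followed at 18.4 to 32.2 FPKM and overlapped TAP2 at 15.9 to 18.7 FPKM. TAP1 at 8.28 to 11.5 FPKM overlapped PSMB9 at 5.22 to 10.3 FPKM. B2M had 8.64 to 11.6 times the summed FPKM of HLA-B and HLA-C, and TAP1 had 0.522 to 0.652 times the FPKM of TAP2. HLA genes are highly polymorphic and alike, so reads from the alleles of U2OS may be split or lost between entries, and the heavy chain levels are less certain than the others.

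**Figure D1:**
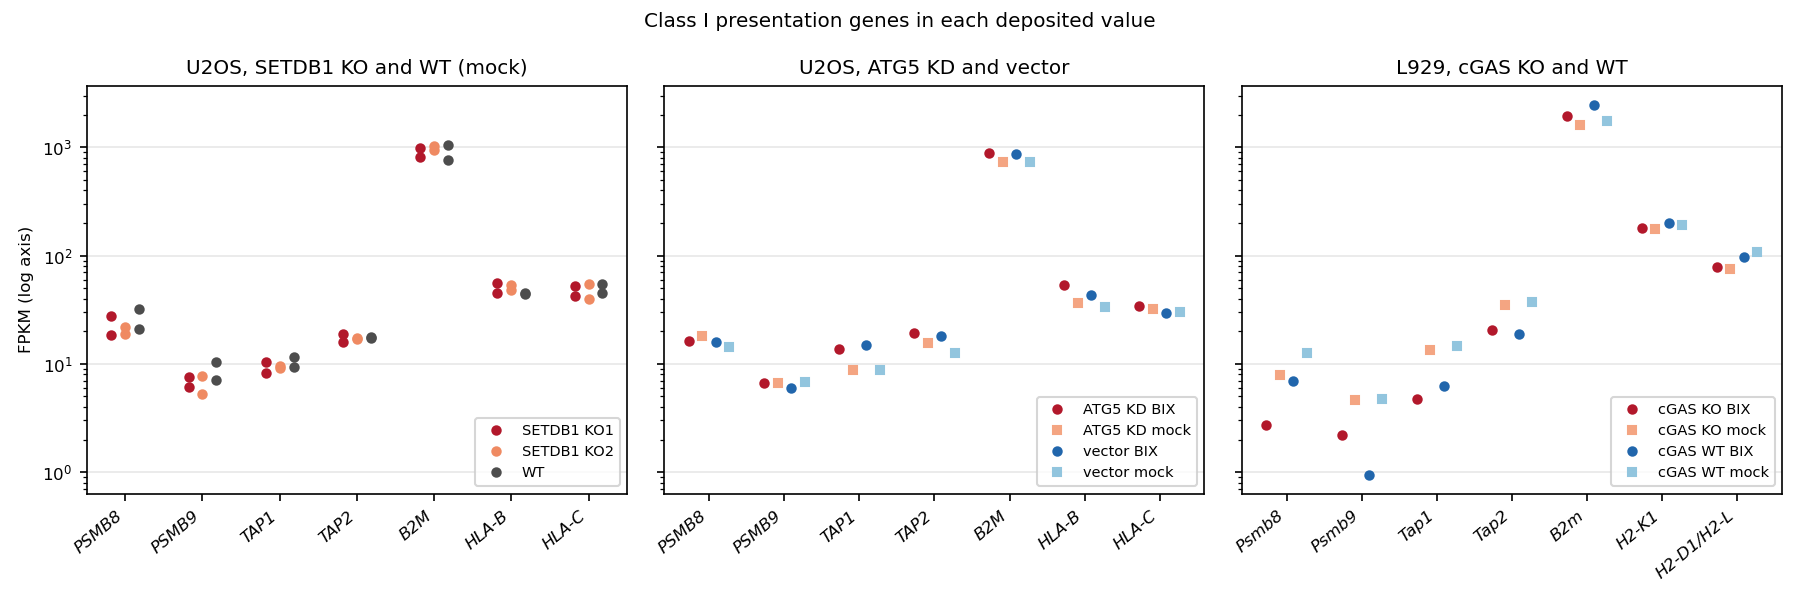
FPKM of the 7 class I presentation genes (log axis) in each deposited value of the 3 tables, 1 point per library or pooled value. B2M lies highest in every library, and in L929 the points of Psmb8, Psmb9, Tap1 and Tap2 with BIX lie under those with mock of the same genotype.

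Loss of SETDB1 was tested first, with 2 libraries per group and limma on log2(FPKM + 1). Of the 7 members, 0 were called when the average of both KOs was set against WT by limma at an adjusted p below 0.05, while 3.23% of 12618 genes were. KO1 against WT (2.41% of genes called), KO2 against WT (2.43%) and KO1 against KO2 (0%, with 206 genes at an unadjusted p below 0.05) also gave 0 of 7. At an unadjusted p below 0.05 the number of members was 0 in each of these contrasts. In a bulk sample a lower value from fewer cells of a type and one from less RNA per cell cannot be told apart.

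The immunoproteasome genes had the lowest log2 differences of the set. PSMB9 was at 6.11 and 7.57 FPKM in KO1, 7.72 and 5.22 FPKM in KO2, and 7.04 and 10.3 FPKM in WT. The KO and WT values overlap, and the log2 difference was −0.33 ± 0.17 (SE, limma adjusted p = 0.489). PSMB8 was at 18.4 and 27.4 FPKM in KO1, 21.7 and 18.8 FPKM in KO2, and 20.9 and 32.2 FPKM in WT. These also overlap, with a log2 difference of −0.27 ± 0.17 (SE, limma adjusted p = 0.650), and without the second WT library the difference was 0.03. PSMB10, the third immunoproteasome subunit, was at 10.6 and 14.0 FPKM in KO1, 15.5 and 12.4 FPKM in KO2, and 16.1 and 18.5 FPKM in WT. All 4 KO values of PSMB10 lie under both WT values, but the log2 difference of −0.38 ± 0.13 did not pass (SE, limma adjusted p = 0.196).

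The transporter genes differed little. TAP1 was at 8.28 and 10.4 FPKM in KO1, 9.58 and 9.25 FPKM in KO2, and 9.36 and 11.5 FPKM in WT, a log2 difference of −0.13 with a 95% interval of −0.40 to 0.13. TAP2 was at 15.9 and 18.7 FPKM in KO1, 17.4 and 17.1 FPKM in KO2, and 17.2 and 17.6 FPKM in WT, with an interval of −0.22 to 0.20. With 2 libraries per group, differences anywhere within these intervals remain compatible with the values.

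Light and heavy chains gave the same picture. B2M was at 814 and 985 FPKM in KO1, 942 and 1025 FPKM in KO2, and 767 and 1040 FPKM in WT, a log2 difference of 0.07 with a 95% interval of −0.26 to 0.40. Leaving out the first WT library turned its sign, to −0.15. HLA-B was at 45.0 and 56.3 FPKM in KO1, 53.3 and 48.5 FPKM in KO2, and 44.1 and 45.6 FPKM in WT. In HLA-B 3 of the 4 KO values lie above both WT values, with a log2 difference of 0.17 ± 0.10 (SE, limma adjusted p = 0.628). HLA-C was at 42.4 and 52.2 FPKM in KO1, 54.7 and 39.7 FPKM in KO2, and 44.7 and 54.3 FPKM in WT, which overlap.

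Other genes of the pathway were not called in SETDB1 KO cells, apart from SOCS1. Of 12 tested genes of peptide processing and loading, 5 other class I and class I-like heavy chains, and 18 regulators of class I genes, 0 were called, with median log2 differences of −0.01, −0.01 and 0.02 beside −0.01 over all genes. Of 10 tested interferon, receptor and kinase genes, 1 was called lower, as were 0.777% of all genes. This was SOCS1, an inhibitor of JAK kinases, at 9.94 and 10.4 FPKM in KO1, 9.87 and 11.8 FPKM in KO2, and 14.5 and 17.7 FPKM in WT. SOCS1 fell by 0.57 ± 0.11 (log2 scale, SE, limma adjusted p = 0.0148) in the average of both KOs. It was called in KO1 (−0.61, limma adjusted p = 0.0301) but not in KO2 (−0.53, limma adjusted p = 0.0630). All 14 constitutive subunits of the 20S proteasome core lay below 0, with a median of −0.15, and 0 were called.

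BIX was examined next, first in U2OS. TAP1, TAP2, HLA-B and B2M were higher with BIX in both U2OS backgrounds by less than 2-fold, and PSMB8, PSMB9 and HLA-C were at 0.883 to 1.10 times the mock level. With 1 value per group there is no replicate check and no p. Of the 7 members, 0 were 2-fold apart in vector cells, beside 10.6% of 12576 genes, and 0 in cells labelled ATG5 KD, beside 11.7% of 12611 genes. The median log2 difference of the 7 was 0.25 in vector cells and 0.28 in cells labelled ATG5 KD, against 0.00 and 0.01 over all genes.

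TAP1 was at 13.7 FPKM with BIX and 8.73 FPKM with mock in cells labelled ATG5 KD, and at 15.0 FPKM with BIX and 8.77 FPKM with mock in vector cells. It was the member with the largest BIX ratio in U2OS, 1.57 in cells labelled ATG5 KD and 1.71 in vector cells, above 82.0% and 87.5% of all genes. TAP2 was at 19.4 FPKM with BIX and 15.7 FPKM with mock in cells labelled ATG5 KD, and at 18.1 FPKM with BIX and 12.7 FPKM with mock in vector cells. The TAP1 to TAP2 ratio was thus 0.705 with BIX and 0.556 with mock in cells labelled ATG5 KD, and 0.827 with BIX and 0.690 with mock in vector cells.

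HLA-B was at 53.3 FPKM with BIX and 36.2 FPKM with mock in cells labelled ATG5 KD, and at 43.3 FPKM with BIX and 33.2 FPKM with mock in vector cells. HLA-C, the neighbouring heavy chain gene, was at 34.2 FPKM with BIX and 32.4 FPKM with mock in cells labelled ATG5 KD, and at 29.8 FPKM with BIX and 30.1 FPKM with mock in vector cells. HLA-B over HLA-C was 1.56 with BIX and 1.12 with mock in cells labelled ATG5 KD, and 1.45 with BIX and 1.10 with mock in vector cells. Both backgrounds thus had more HLA-B per HLA-C with BIX than with mock, although reads can be split between these alike genes.

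B2M was at 885 FPKM with BIX and 730 FPKM with mock in cells labelled ATG5 KD, and at 873 FPKM with BIX and 732 FPKM with mock in vector cells. Its ratios of 1.21 and 1.19 were close in both backgrounds. The FPKM summed over all entries was also higher with BIX than with mock. This sum was 564049 against 485216 in cells labelled ATG5 KD and 486819 against 445281 in vector cells. PSMB8 was at 16.4 FPKM with BIX and 18.2 FPKM with mock in cells labelled ATG5 KD, and at 15.8 FPKM with BIX and 14.4 FPKM with mock in vector cells, differences of opposite sign. PSMB9 was at 6.70 FPKM with BIX and 6.67 FPKM with mock in cells labelled ATG5 KD, and at 5.99 FPKM with BIX and 6.79 FPKM with mock in vector cells.

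The label ATG5 KD itself was compared at fixed treatment. Of the 7 members, 0 were 2-fold apart between mock cells labelled ATG5 KD and mock vector cells, beside 0.953% of 12491 genes, and 0 between the BIX values, beside 1.85% of 12260 genes. The largest differences of a member were PSMB8 at 1.26 times and TAP2 at 1.23 times the vector level with mock, and HLA-B at 1.23 times the vector level with BIX. All 14 constitutive 20S core genes were higher with BIX in cells labelled ATG5 KD than in vector cells. Their median log2 difference was 0.27, against 0.03 over all genes. With mock, 13 of 14 were higher (median 0.23, against 0.01). The FPKM summed over all entries was also higher in cells labelled ATG5 KD. It was 564049 against 486819 with BIX and 485216 against 445281 with mock, and its part in these differences was not tested.

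In L929 the same treatment went with lower cutting and transport genes. Psmb8, Psmb9, Tap1 and Tap2 were each lower with BIX in both genotypes, at 0.196 to 0.587 times the mock level, while H2-K1 and H2-D1 were at 0.901 to 1.06 times it and B2m was higher. In cGAS WT cells 2 of the 7 members (Tap1 and Psmb9) were at least 2-fold lower, beside 13.6% of 11082 genes 2-fold apart in either direction and 6.17% lower. In cGAS KO cells 2 of 7 (Tap1 and Psmb8) were, beside 22.9% of 11381 genes in either direction and 9.88% lower. These comparisons have 1 library per group, so no p is given.

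Psmb9 was at 2.20 FPKM with BIX and 4.68 FPKM with mock in cGAS KO cells, and at 0.939 FPKM with BIX and 4.78 FPKM with mock in cGAS WT cells. The cGAS WT BIX value is the lowest of any member in any library, and it comes from the L929 library with the fewest reads of the 4. Psmb8 was at 2.74 FPKM with BIX and 7.82 FPKM with mock in cGAS KO cells, and at 6.89 FPKM with BIX and 12.5 FPKM with mock in cGAS WT cells. Both immunoproteasome genes were lower with BIX in each genotype, with the lower ratio in cGAS WT cells for Psmb9 and in cGAS KO cells for Psmb8, a difference that was not tested.

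Tap1 was at 4.77 FPKM with BIX and 13.5 FPKM with mock in cGAS KO cells, and at 6.26 FPKM with BIX and 14.5 FPKM with mock in cGAS WT cells. Tap2 was at 20.5 FPKM with BIX and 34.9 FPKM with mock in cGAS KO cells, and at 18.8 FPKM with BIX and 37.6 FPKM with mock in cGAS WT cells. Tap1 was 2-fold lower in both genotypes, and Tap2 was at 0.587 times the mock level in cGAS KO cells and 0.4999 times in cGAS WT cells, just inside 2-fold on the log2(FPKM + 1) scale. The Tap1 to Tap2 ratio was 0.233 with BIX and 0.387 with mock in cGAS KO cells, and 0.333 with BIX and 0.386 with mock in cGAS WT cells.

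B2m was at 1956 FPKM with BIX and 1619 FPKM with mock in cGAS KO cells, and at 2483 FPKM with BIX and 1753 FPKM with mock in cGAS WT cells. H2-K1 was at 181 FPKM with BIX and 177 FPKM with mock in cGAS KO cells, and at 200.2 FPKM with BIX and 189.6 FPKM with mock in cGAS WT cells. The joined H2-D1 and H2-L locus was at 77.8 FPKM with BIX and 74.4 FPKM with mock in cGAS KO cells, and at 96.2 FPKM with BIX and 106.7 FPKM with mock in cGAS WT cells. B2m over the sum of both heavy chain entries was 7.55 with BIX and 6.44 with mock in cGAS KO cells, and 8.37 with BIX and 5.91 with mock in cGAS WT cells. The light chain thus stood higher relative to the heavy chains with BIX in both genotypes.

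**Figure D2:**
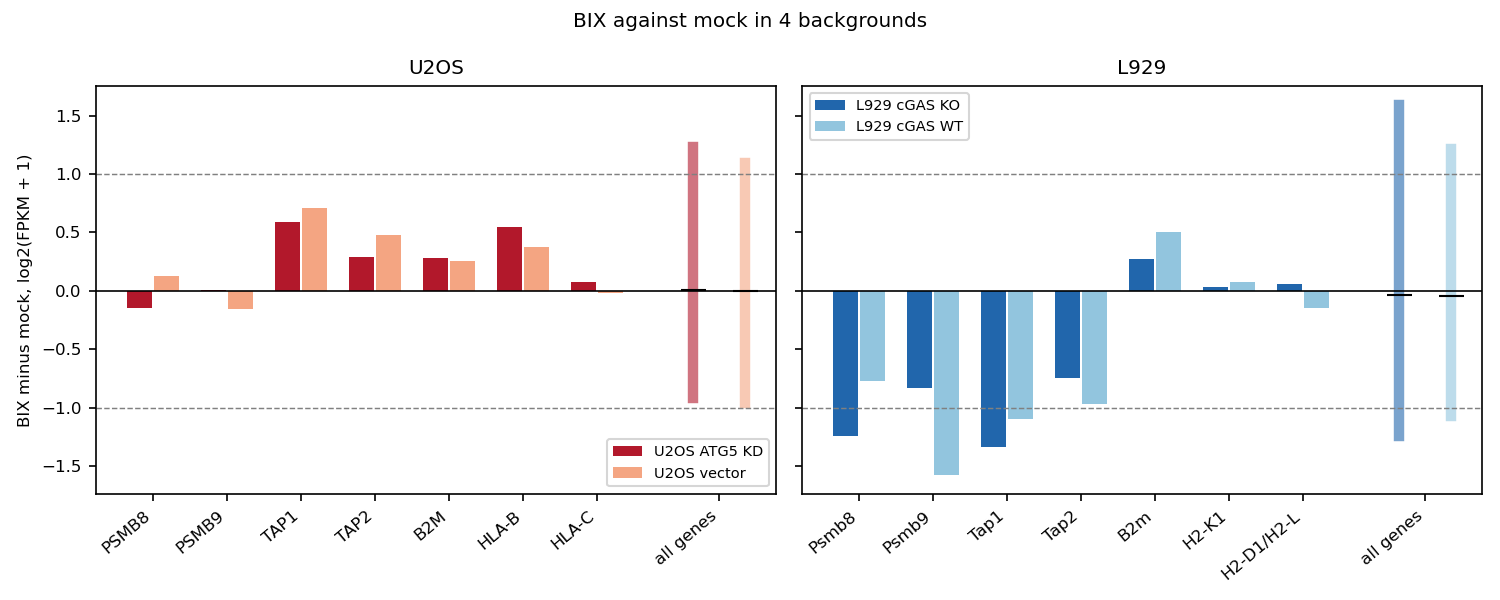
Difference between BIX and mock in log2(FPKM + 1) for each member in the 4 backgrounds (bars, 1 value each), with the span from the 5 to the 95 percentile of all counted genes (thick lines at the right, dash at the median) and 2-fold as dashed lines. The bars of Psmb8, Psmb9, Tap1 and Tap2 point down in both L929 genotypes, TAP1 and TAP2 point up in both U2OS backgrounds, and B2M points up in all 4.

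Loss of cGAS was compared at fixed treatment. With mock, 0 of 7 members were 2-fold apart between cGAS KO and cGAS WT cells, beside 7.83% of 11019 genes. All 7 lay below 0, with Psmb8 at 0.626 times and the H2-D1 locus at 0.697 times the WT level, while the other members were at 0.924 to 0.979 times. Centring on the median of all genes turned the sign of Psmb9. With BIX, 1 of 7 (Psmb8, at 0.398 times the WT level) was at least 2-fold lower, beside 11.7% of 11364 genes in either direction and 5.28% lower. Psmb9 was at 2.34 times the WT level with BIX, with 2.20 FPKM in cGAS KO cells against 0.939 FPKM in cGAS WT cells.

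Other genes of the pathway and of cell identity differed between these lines. Psmb10 was at 5.90 FPKM in cGAS KO mock cells against 15.4 FPKM in cGAS WT mock cells. Of 9 mesenchymal markers counted, 6 were higher and 3 lower in cGAS KO mock cells (median log2 difference 0.19), and 3 were 2-fold apart. These were Fn1, at 348 FPKM in cGAS KO mock cells against 18.6 FPKM in cGAS WT mock cells, Col1a2 at 486 against 49.4 FPKM, and Col1a1 at 192 against 40.9 FPKM. S100a4, the most abundant, was at 3075 FPKM in cGAS KO mock cells against 3953 FPKM in cGAS WT mock cells. The sum of that list was 6421 FPKM in cGAS KO mock cells and 6289 FPKM in cGAS WT mock cells. Cd74, the invariant chain of class II, was at 225 FPKM in cGAS KO mock cells against 73.3 FPKM in cGAS WT mock cells. The class II chains H2-Aa and H2-Ab1 were at 0 in every L929 library. H2-DMa, H2-DMb1 and H2-DMb2, also of the class II list, reached 1 FPKM in every L929 library. The KO line differed from the WT line well beyond cGAS, and the part of this in the member values was not tested.

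The immunoproteasome genes were then set against their constitutive counterparts, as ratios of FPKM given in percent. In the SETDB1 table PSMB8 was at 21.4% to 30.9% of PSMB5 in the 4 KO libraries and 20.2% and 27.8% in the 2 WT libraries. PSMB9 was at 5.93% to 7.57% of PSMB6 in the KO libraries and 6.38% and 8.77% in the WT libraries, and the groups overlapped for both. PSMB10 was at 10.5% to 13.3% of PSMB7 in the KO libraries and 14.1% and 14.4% in the WT libraries, with no overlap and no test of the ratio.

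With BIX the ratios of PSMB8 and PSMB9 were nearer to mock in U2OS than in L929. PSMB8 was at 19.6% of PSMB5 with BIX and 21.8% with mock in cells labelled ATG5 KD, and at 30.4% with BIX and 23.6% with mock in vector cells. PSMB9 was at 6.53% of PSMB6 with BIX and 6.78% with mock in cells labelled ATG5 KD, and at 7.59% with BIX and 8.32% with mock in vector cells. In L929 Psmb8 was at 3.10% of Psmb5 with BIX and 10.4% with mock in cGAS KO cells, and at 6.41% with BIX and 13.0% with mock in cGAS WT cells. Psmb9 was at 2.61% of Psmb6 with BIX and 5.24% with mock in cGAS KO cells, and at 1.16% with BIX and 4.61% with mock in cGAS WT cells. Psmb10 was at 3.57% of Psmb7 with BIX and 4.35% with mock in cGAS KO cells, and at 4.06% with BIX and 8.45% with mock in cGAS WT cells. In cGAS KO cells Psmb10 itself was higher with BIX (6.83 FPKM) than with mock (5.90 FPKM). Psmb7 was at 191.6 FPKM with BIX and 135.6 FPKM with mock there. In cGAS WT cells Psmb10 was at 8.86 against 15.4 FPKM, and Psmb7 at 218 against 182 FPKM. The constitutive genes Psmb5 and Psmb6 were between 75.5 and 107 FPKM in every L929 library, and Psmb5 was listed jointly with Mir686. In the ATG5 table PSMB10 was listed only within a locus joined with CTRL, LCAT and SLC12A4, so no ratio is given for it.

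**Figure D3:**
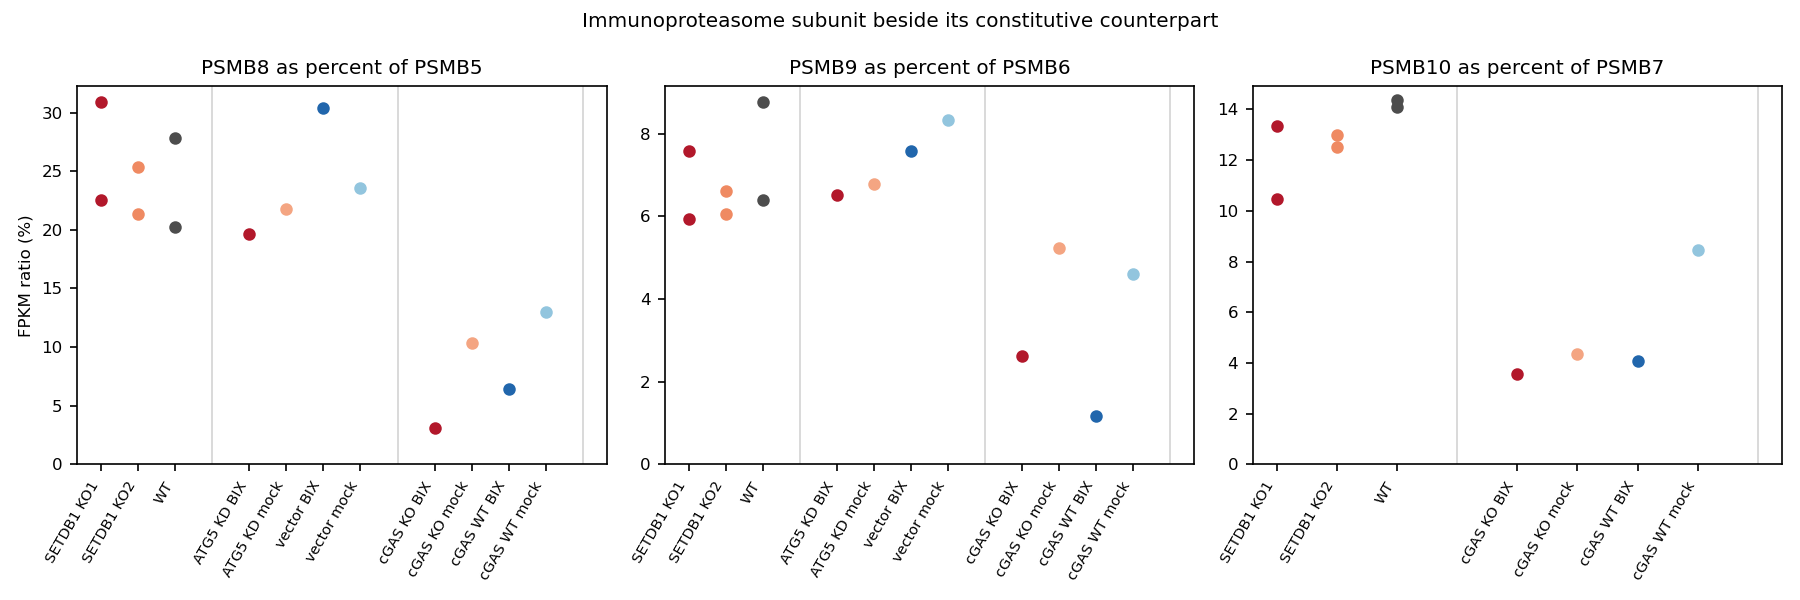
FPKM of PSMB8, PSMB9 and PSMB10 as a percentage of the constitutive counterpart PSMB5, PSMB6 and PSMB7, 1 point per library or pooled value (axis from 0). In L929 each BIX point lies under the mock point of its genotype, and PSMB10 is left out for the ATG5 table. For Psmb10 in cGAS KO cells the ratio is lower with BIX although Psmb10 itself was higher, as Psmb7 was higher too.

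Both tests across the 4 backgrounds took each BIX minus mock difference as 1 unit. They cover 5 members, since HLA and H2 genes share no symbol, and both backgrounds of a line share that line. Against 0, 1 of 5 was called, beside 21.7% of 10111 genes in either direction, 11.7% higher and 10.00% lower. B2M rose by 0.33 on the log2 scale (95% interval 0.17 to 0.49, limma adjusted p = 0.0216), and it was higher with BIX in 4 of 4 backgrounds. This call was lost without the vector background (adjusted p = 0.0693), without the labelled ATG5 KD background (0.0719), without cGAS WT (0.0531) and without cGAS KO (0.0635), at log2 differences of 0.27 to 0.35. It was also lost with no filter on low values (adjusted p = 0.0762) and with no trend in the moderation (0.0910). The other 4 members lay below 0, between −0.23 and −0.64, and did not pass. The FPKM summed over all entries was higher with BIX in both U2OS backgrounds, as given above, and in both L929 genotypes. In L929 it was 521478 against 484877 in cGAS KO cells and 559812 against 526249 in cGAS WT cells. Its part in the B2M call was not tested.

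The response of L929 was then set against that of U2OS. All 4 cutting and transport genes were called lower in L929, and B2M was not, beside 26.7% of genes called in either direction and 15.4% lower. The log2 difference of differences was −1.86 for TAP1 (95% interval −2.30 to −1.43, limma adjusted p = 0.0147) and −1.24 for TAP2 (−1.66 to −0.82, limma adjusted p = 0.0165). It was −0.996 for PSMB8 (−1.59 to −0.40, limma adjusted p = 0.0389) and −1.13 for PSMB9 (−1.89 to −0.37, limma adjusted p = 0.0497). For B2M it was 0.12, with an interval of −0.18 to 0.43. Without the vector background, and likewise without the labelled ATG5 KD background, 0 of 5 were called, but so were 0 of all 10111 genes, so these settings say nothing about the members in particular. Leaving out any 1 background, the difference ranged from −1.98 to −1.75 for TAP1, −1.35 to −1.12 for TAP2, −1.23 to −0.76 for PSMB8 and −1.501 to −0.75 for PSMB9. PSMB8 was also lost without cGAS KO (limma adjusted p = 0.0576), where 30.7% of all genes were called. PSMB8 and PSMB9 were lost with a pseudocount of 0.1 (20.8% of all genes called) or no filter on low values (15.2%). Line, species and table cannot be told apart here.

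Several genes of factors that act on class I genes were higher with BIX. Of 16 tested regulators of class I genes, 5 rose across the 4 backgrounds and 0 fell, beside 11.7% of all genes called higher and 10.00% called lower, with a median of 0.39 against −0.01 over all genes. RELB, an NF-kappaB subunit, was at 32.4 FPKM with BIX and 4.93 FPKM with mock in cells labelled ATG5 KD, 25.9 and 5.44 FPKM in vector cells, 26.4 and 9.48 FPKM in cGAS KO cells, and 24.1 and 6.47 FPKM in cGAS WT cells. It rose by 1.92 ± 0.20 on the log2 scale (SE, limma adjusted p = 0.00672). IRF1, the interferon regulatory factor that binds the interferon-type motif, was at 5.61 FPKM with BIX and 2.52 FPKM with mock in cells labelled ATG5 KD, 6.36 and 2.56 FPKM in vector cells, 17.5 and 8.15 FPKM in cGAS KO cells, and 8.43 and 5.17 FPKM in cGAS WT cells. It rose by 0.89 ± 0.14 (SE, limma adjusted p = 0.0118). NFKB1, NFKB2 and NFYC, a subunit of the CCAAT-binding factor NF-Y, also rose (log2 differences 1.28, 0.84 and 0.69). The call of NFKB1 lies near the limit (limma adjusted p = 0.0422). NFKB1 also differed between lines, by −1.55 in L929 against U2OS (limma adjusted p = 0.0154), as it was at 52.6 FPKM with BIX and 10.8 FPKM with mock in cells labelled ATG5 KD, against 46.6 and 33.7 FPKM in cGAS KO cells.

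NLRC5 was not called in either test. Its BIX minus mock log2 difference in U2OS was −0.39 in cells labelled ATG5 KD and 0.14 in vector cells. Nlrc5 was at 4.88 FPKM with BIX and 3.89 FPKM with mock in cGAS KO cells, and at 9.43 and 7.11 FPKM in cGAS WT cells.

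Of 8 tested interferon, receptor and kinase genes, 0 rose and 2 fell across the backgrounds, beside 11.7% of all genes called higher and 10.00% called lower. TYK2, a kinase of the type I interferon receptor, fell by 0.78 (limma adjusted p = 0.0494), and SOCS1 fell by 1.29 (0.0494). Both lie just under the limit of 0.05, and their calls under other settings are not given here. SOCS1 was at 1.92 FPKM with BIX and 10.4 FPKM with mock in cells labelled ATG5 KD, 1.32 and 8.25 FPKM in vector cells, 2.62 and 7.39 FPKM in cGAS KO cells, and 9.97 and 9.77 FPKM in cGAS WT cells, so the lower values are in 3 of 4 backgrounds. IFNAR1, a receptor chain for type I interferon, differed by −1.82 in its response in L929 against U2OS (limma adjusted p = 0.0154), with Ifnar1 at 4.02 FPKM with BIX and 11.9 FPKM with mock in cGAS KO cells, and at 5.56 and 11.6 FPKM in cGAS WT cells. IFNGR2, a receptor chain for interferon gamma, differed by −1.02 (limma adjusted p = 0.0156), with Ifngr2 at 25.9 FPKM with BIX and 43.5 FPKM with mock in cGAS KO cells, and at 21.6 and 37.6 FPKM in cGAS WT cells.

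In L929 some interferon-related genes stood higher with BIX while the immunoproteasome and transporter genes stood lower. Usp18, an interferon-induced protease, was at 2.51 FPKM with BIX and 0.109 FPKM with mock in cGAS KO cells, and at 7.11 and 0.554 FPKM in cGAS WT cells. Irf9, the DNA-binding subunit of the interferon-activated complex ISGF3, was at 23.1 FPKM with BIX and 5.29 FPKM with mock in cGAS KO cells, and at 20.3 and 7.004 FPKM in cGAS WT cells. Ifna4, an interferon alpha gene, was listed at 6.07 FPKM with BIX in cGAS WT cells and at 0 in the other L929 libraries, so no ratio is given.

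Most peptide processing and loading genes outside the set were also lower with BIX in L929. Of 12 counted in cGAS KO cells, 9 were lower with BIX (median log2 difference −0.26, against −0.04 over all genes), of which Thop1 was 2-fold lower and Lnpep 2-fold higher. Of 12 in cGAS WT cells, 11 were lower (median −0.54, against −0.04) and 0 were 2-fold apart. Psme1 and Psme2, which form the interferon-inducible proteasome activator, were at 28.6 and 23.7 FPKM with BIX and 43.1 and 30.5 FPKM with mock in cGAS KO cells, and at 34.4 and 19.2 FPKM with BIX and 46.3 and 30.4 FPKM with mock in cGAS WT cells. Across the 4 backgrounds 1 of 9 tested genes of this list fell and 0 rose, close to the 10.00% of all genes called lower. This was THOP1, a peptidase that degrades peptides in the cytosol, which fell by 0.64 (limma adjusted p = 0.0461). That is just under the limit of 0.05, and its call under other settings is not given here. In U2OS 0 of 11 counted genes were 2-fold apart in either background.

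Other class I and class I-like heavy chains gave a mixed picture. In U2OS, 3 of 6 counted were higher with BIX in vector cells and 3 of 5 in cells labelled ATG5 KD. In L929, 2 of 8 counted were higher with BIX in cGAS KO cells and 3 of 8 in cGAS WT cells. The genes named next were all lower with BIX. H2-Q1 was at 7.69 FPKM with BIX and 8.79 FPKM with mock in cGAS KO cells, and at 2.17 and 11.8 FPKM in cGAS WT cells. Mr1, which presents vitamin metabolites, was at 1.87 FPKM with BIX and 4.20 FPKM with mock in cGAS KO cells, and at 1.37 and 4.24 FPKM in cGAS WT cells. The joined H2-T22 and H2-T9 locus was at 5.88 FPKM with BIX and 17.1 FPKM with mock in cGAS KO cells, and at 4.43 and 7.10 FPKM in cGAS WT cells. HFE, a class I-like regulator of iron uptake, fell by 0.81 across the 4 backgrounds (limma adjusted p = 0.0115).

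**Figure D4:**
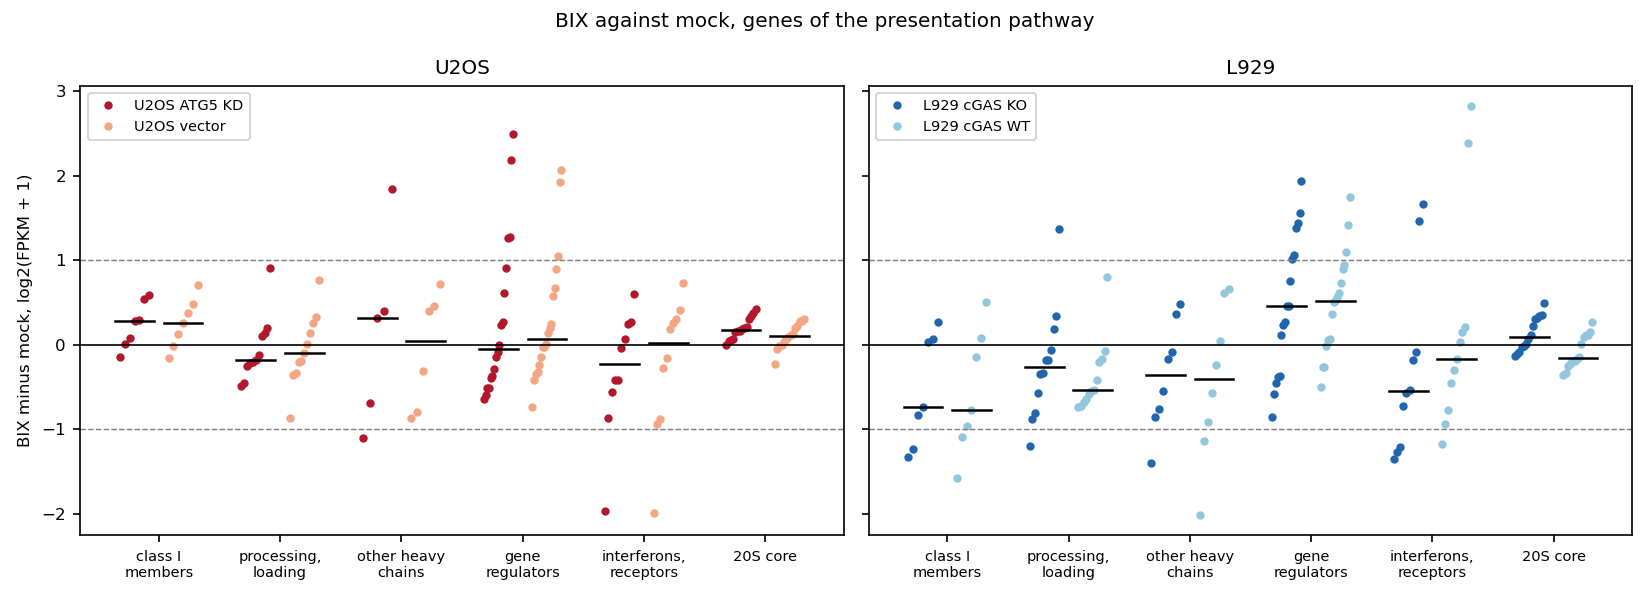
Difference between BIX and mock in log2(FPKM + 1) for each counted gene of 6 lists in U2OS and L929 (points), with the median of each list (black line) and 2-fold as dashed lines. In L929 the medians of the members lie at −0.74 in cGAS KO and −0.77 in cGAS WT cells, while the regulators of class I genes lie at 0.46 and 0.52.

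The genes whose profile over the 4 values lay nearest to the mean profile of the members were also listed. In the ATG5 table these were the joined CCBL2 and RBMXL1 locus, KIAA0141, SLC35A2, the joined ANKRD62P1-PARP4P3 and TPTEP1 locus, and EDC3, at root mean square distances of 0.0056 to 0.010 on the log2 scale among 9668 candidates. In the cGAS table they were Mia3, Mrpl42, Dusp22, Dnal1 and Adprh, at 0.0094 to 0.024 among 9312 candidates. With 4 values per table such closeness is a description only. Mia3, for example, was at 19.4 FPKM with BIX and 28.7 FPKM with mock in cGAS KO cells, and at 22.4 and 33.1 FPKM in cGAS WT cells.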

How the data were processed

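FPKM values (fragments scaled by gene length and by the size of the library) were used as deposited by the authors, 1 set of values per table. Per the labels' protocols, poly(A) RNA was made into TruSeq libraries and sequenced as 100 bp paired ends. Per the submitters' processing notes the tools were FastQC, cutadapt, TopHat2 and Cufflinks, with builds hg19 and mm10. Versions, annotation, strandedness and read counts were not found in these sources, so depth is unknown and no counting interval is given. Chromatin samples (8) were not analysed here, and results of some genes are not reported here.

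The entry with the highest mean was kept for a symbol listed more than once, and short non-coding RNAs were left out. The SETDB1 groups were compared with limma 3.58.1 in R 4.3.3 on log2(FPKM + 1), with a trend, over genes that reached 1 FPKM in 2 or more libraries, with Benjamini-Hochberg adjustment over all tested genes and calls below 0.05. The 4 BIX minus mock differences were tested the same way, with genes matched by symbol. The limit of 1 FPKM was applied over both lines together, so a gene could enter through 1 line alone. Among tested list genes, TAPBP had a difference of 0 in both U2OS backgrounds. IRF8 had 0 in cGAS KO and −0.047 in cGAS WT cells. Single values were counted when 2-fold apart on this scale, among genes that reached 1 FPKM in either value, with no p. A log2 difference on this scale understates the change of low genes, and ratios are of FPKM. The scripts were tested on simulated data. Lists were written by hand, and members and lists were chosen with earlier results of these data known. Named were all members, up to 4 list genes with the largest difference past the threshold of a comparison, the proteasome counterparts, the targets and the 5 nearest profiles per table. IRF1, NLRC5, Psme1, Psme2, NFKB2, NFYC, HFE and class II genes named beyond that were chosen after their values were seen. Plots used matplotlib 3.10.9.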

Additional observations from a re-analysis of the deposited data

Results flagged for a closer look

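In 4 members the BIX response was called different between the lines, by a limma test with both backgrounds of each line as units. Its spread is that between backgrounds of the same line, not between lines. The U2OS values are pooled and the L929 values are single libraries. Line, species and table cannot be told apart, and the calls depended on the setting, as given above. The mean BIX minus mock log2 difference of both L929 backgrounds less that of both U2OS backgrounds was −1.86 for TAP1, −1.24 for TAP2, −0.996 for PSMB8 and −1.13 for PSMB9.

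Members whose BIX difference had opposite signs in both backgrounds of a line were also picked out, and these differences between backgrounds were not tested. In U2OS the BIX difference in cells labelled ATG5 KD less that in vector cells was −0.27 for PSMB8, 0.16 for PSMB9 and 0.092 for HLA-C. In L929 the BIX difference in cGAS KO cells less that in cGAS WT cells was 0.21 for the joined H2-D1 and H2-L locus.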

How the results depend on the processing

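Of the recomputed counts of members, 104 stayed within 1.5 times the reported one and the others are given here. In the SETDB1 comparisons the count stayed at 0 under every alternative, also without any 1 library. The replicate numbers shared by these groups pair no libraries by the labels, and deviations of same-numbered libraries correlated at 0.202 (KO1 and KO2), 0.373 (KO1 and WT) and 0.0038 (KO2 and WT). With the number as a replicate block, 0 members were called in each contrast, and genes called in the mean of the KOs went to 507 of 12618, against 407. Signs near 0 turned. Leaving out 1 library, the log2 difference of the mean of the KOs against WT ranged from −0.15 to 0.29 for B2M, from −0.065 to 0.045 for TAP2, from −0.57 to 0.029 for PSMB8 and from −0.21 to 0.066 for HLA-C, and quantile normalization gave 0.0019 for TAP2.

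Across the 4 backgrounds, 0 of 5 members were called with no filter on low values, with no trend, and without any 1 background, against 1. Over all genes 10.3%, 20.8% and 2.99% to 11.4% were called under these, against 21.7%. Without 1 background the difference ranged from −0.61 to 0.068 for TAP1 and from −0.47 to 0.0080 for TAP2. For L929 against U2OS the count was 2 of 5 with a pseudocount of 0.1 (20.8% of all genes called) and with no filter (15.2%), and 0 to 4 without 1 background, against 4. Without the vector or without the labelled ATG5 KD background 0 of all genes were called. Median centring could move none of these: genes at 0 in both libraries of a background sit at the median, which was 0. Without those genes the medians were 0.0034 (vector), 0.0062 (labelled ATG5 KD), −0.022 (cGAS WT) and −0.0087 (cGAS KO).

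Of the single comparisons with BIX, a limit of 1.5-fold gave 1 member in vector cells (32.0% of all genes), 1 in cells labelled ATG5 KD (33.0%), 4 in cGAS WT (35.5%) and 4 in cGAS KO cells (47.3%). A floor of 5 FPKM gave 1 in cGAS WT cells (13.3%). Between cGAS KO and WT cells, 1.5-fold gave 1 with mock (2422 of 11019 genes) and 2 with BIX (32.1%), and a pseudocount of 0.1 gave 2 with BIX (18.0%). A limit of 1.5-fold can only add members. The floor of 5 FPKM left out Psmb9, at 0.939 and 4.78 FPKM in cGAS WT cells. With a pseudocount of 0.1, the log2 difference of Psmb9 between cGAS KO and WT cells with BIX went from 0.72 to 1.15. Single libraries or pooled values and unknown read depth limit all BIX comparisons.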
